A study of Mus musculus with 20 samples.

Results

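The 10 genes described here encode mitotic and meiotic cohesin and its regulators: Smc1b, Smc3, Rec8, Rad21l, Rad21, Stag3, Stag1, Nipbl, Pds5a and Pds5b. They were chosen by symbol, as the peaks of the deposited N6-methyladenosine (m6A) peak tables that carry 1 of these 10 symbols. The 5 tables held 84778 peaks on 11976 genes, and 195 of these peaks lay on the 10 cohesin genes. Each table belonged to 1 stage of germ cells from wild-type male mice of the strain C57BL/6. In developmental order the stages were undifferentiated spermatogonia, the pool that includes the stem cells; type A1 spermatogonia, the first differentiating generation; preleptotene spermatocytes, which are about to enter meiosis; pachytene/diplotene spermatocytes of mid-meiotic prophase; and the haploid round spermatids. Every stage had 2 immunoprecipitated (IP) and 2 input libraries, in 10 groups and 20 libraries in all. All 5 stages are wild type, and neither the ages of the animals used for m6A-seq nor the way the cells were isolated is stated in the sources used here.

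Cohesin is a ring that holds sister chromatids together from replication until they separate. A pair of SMC ATPases forms the long arms, a kleisin closes the ring, and a STAG protein sits on the kleisin. Nipbl loads the ring onto DNA and Pds5 proteins control how long it stays. In meiotic cells Smc1b, Rec8, Rad21l and Stag3 take the places of mitotic subunits, and the resulting complexes build the chromosome axes on which homologues pair and recombine. m6A is laid down on mRNA by the Mettl3 and Mettl14 methyltransferase, and it is known to affect how long an mRNA lasts and how well it is translated. In m6A-seq, fragments bound by an antibody against the base are sequenced beside the input RNA, and a peak's log2 enrichment is its abundance in the IP over that in the input.

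The libraries held 9622068 to 22402907 mapped reads. The type A1 libraries stood apart, with 68.3% to 73.2% of reads mapped in the inputs and 85.5% to 87.5% in the IPs, against 92.8% to 97.6% in the other stages. Of 25 markers of Sertoli, Leydig, peritubular, endothelial and blood cells, 20 carried a peak in undifferentiated spermatogonia, where Cyp17a1, Insl3, Pecam1, Cd68 and Adgre1 had none. Type A1 had 2 such genes, preleptotene 5, pachytene/diplotene 0 and round spermatids 1. Their summed log2 enrichment was 67.8 and 81.8 in the undifferentiated replicates, 3.96 and 3.82 in type A1, and 19.1 and 18.7 in preleptotene. Only listed peaks enter this sum, so it was 0 in both pachytene/diplotene replicates, where no marker had one, which is not a measured enrichment. In round spermatids it was 1.72 and 2.32. The part of these cells in the undifferentiated values below was not tested. All 6 markers of meiotic spermatocytes carried a peak in preleptotene and pachytene/diplotene, 5 did in round spermatids, 2 in type A1 and 4 in undifferentiated spermatogonia. Their summed log2 enrichment was 16.1 and 15.7 in the undifferentiated replicates, 3.68 and 6.10 in type A1, 27.6 and 25.7 in preleptotene, 32.2 and 28.3 in pachytene/diplotene, and 9.85 and 9.95 in round spermatids. The part of meiotic cells in the undifferentiated values below was not tested either. Of 7 markers of undifferentiated spermatogonia, 6 carried a peak in that stage, all but Nanos2, and 5 did in type A1. Of 4 markers of differentiating spermatogonia, 2 did in undifferentiated spermatogonia, and 3, all but Sohlh1, in both type A1 and preleptotene. Of 6 markers of round spermatids, 3 did in that stage, where Tnp1, Prm2 and Catsper3 had none, and 4 in pachytene/diplotene. Whether the 2 replicates of a stage came from separate animals is not stated, so the spread between them may be technical. The p-values below rest on that spread, drawn toward the typical spread over all peaks of the table.

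The cohesin genes were marked at nearly every stage. Of the 10, undifferentiated spermatogonia had 9 with at least 1 listed peak, both type A1 and preleptotene had 10, and both later stages had 8. Over all 11976 genes the shares were 75.9%, 61.1%, 62.4%, 56.1% and 46.9%. A peak in all 5 stages was listed for 7 of the 10, against 24.2% of all genes: Smc1b, Rec8, Rad21, Stag3, Nipbl, Pds5a and Pds5b. Of the other 3 genes, Rad21l was without a peak in undifferentiated spermatogonia, pachytene/diplotene and round spermatids, Smc3 in pachytene/diplotene and Stag1 in round spermatids. Peaks on the 10 genes numbered 45, 35, 48, 37 and 30 along the stages. The median marked cohesin gene had 5, 3.5, 4.5, 4 and 2.5 peaks, against 2, 2, 2, 2 and 1 over all marked genes. The weakest peak that each table lists had a mean enrichment of 1.48, 0.71, 1.42, 1.55 and 0.61 in stage order, so the type A1 and round spermatid lists reach lower. With 1.55 as the minimum everywhere, Smc3 and Rec8 dropped out of type A1 and of round spermatids, which left 8 and 6 genes marked there. No normalization common to the tables is stated, so enrichments are described within a stage.

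The strongest peak of the marked cohesin genes had a median log2 enrichment of 5.01, 1.85, 4.54, 3.88 and 2.41 along the stages. Over all marked genes these medians were 3.51, 2.05, 3.36, 3.23 and 1.86. The cohesin median thus lay above that of all genes at every stage but type A1. A gene with more peaks has more chances of a high strongest peak. Over single peaks the cohesin medians were 3.24, 1.75, 2.98, 2.74 and 1.49 and those of all peaks 3.01, 1.76, 2.92, 2.87 and 1.67. Of the cohesin peaks, 23 of 45, 17 of 35, 25 of 48, 17 of 37 and 13 of 30 lay above their table's median.

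**Figure D1:**
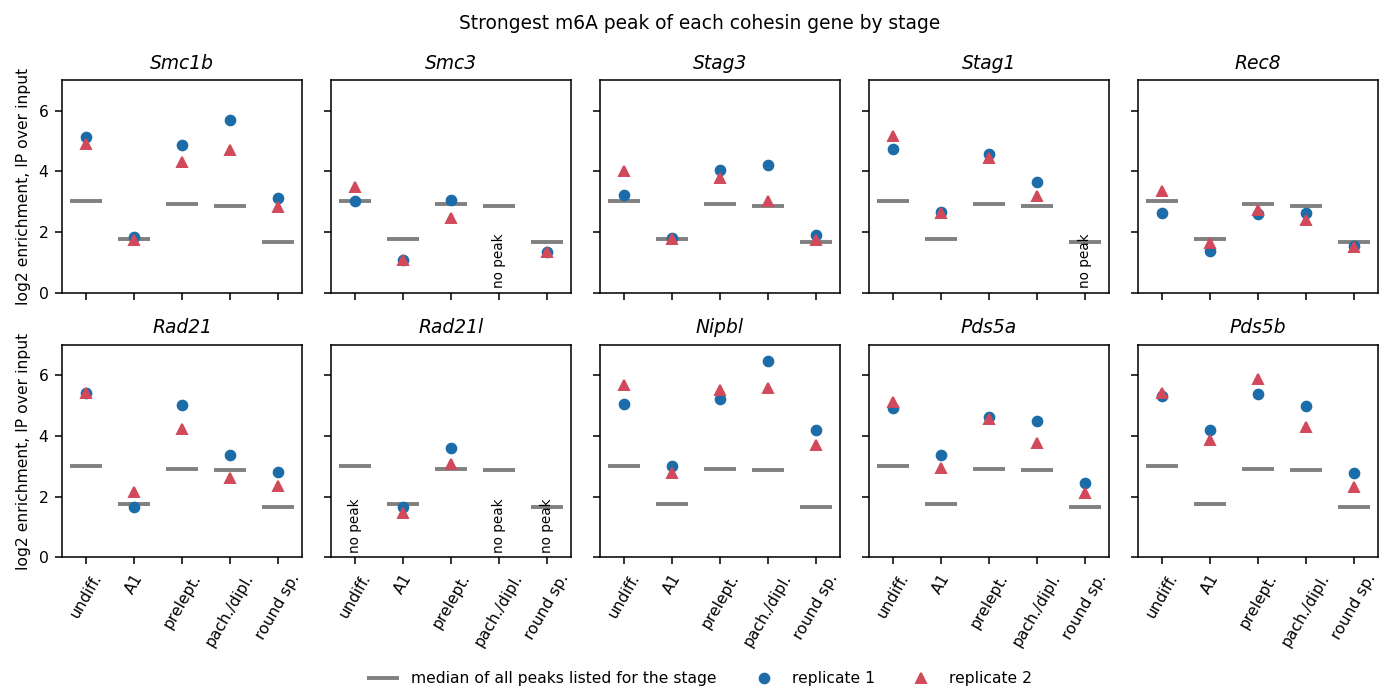
Log2 enrichment (IP over input) of the strongest peak of each cohesin gene in the 5 stages. Circles are replicate 1, triangles replicate 2 and grey bars the median of all peaks listed for the stage (3.01, 1.76, 2.92, 2.87 and 1.67); Rad21l has no peak in 3 stages, Smc3 and Stag1 in 1 stage each, and Nipbl in pachytene/diplotene is the highest value.

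Smc1b encodes the meiotic SMC1 arm of the ring. The gene lies at chr15:85064689-85131957 (GRCm38.p6, the assembly of mm10), on the minus strand. Its strongest peak covered the very start of the transcript (NM_080470), from nt 1 to nt 119 to 133 depending on the stage, and was labelled start codon where the table has such labels. The replicates of the 5′ peak read 5.13 and 4.88 in undifferentiated spermatogonia, 1.84 and 1.72 in type A1, 4.88 and 4.32 in preleptotene, 5.70 and 4.72 in pachytene/diplotene, and 3.12 and 2.83 in round spermatids. It was stronger than 94.2%, 51.8%, 92.0%, 96.9% and 93.9% of the peaks of its table, so type A1 was the stage where it stood near the middle. A coding peak that begins at nt 2575 to 2578 was weaker, at 2.15 and 2.36 in undifferentiated spermatogonia, 1.37 and 1.04 in type A1, 2.86 and 1.63 in preleptotene, and 2.81 and 1.71 in pachytene/diplotene, and was not listed in round spermatids.

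Smc3 (chr19:53600396-53645831), the SMC arm common to mitotic and meiotic cohesin, carried peaks in its coding sequence alone. In undifferentiated spermatogonia it had 5 peaks, the strongest at nt 3324 to 3586 with 3.01 and 3.48, and in preleptotene 5 peaks at near identical positions, the strongest with 3.06 and 2.45. In type A1 it had 2 peaks with means of 0.95 and 1.07, the stronger above 6.26% of that table's peaks. In round spermatids it had 4 peaks, with means between 0.95 and 1.34. Smc3 was thus of moderate enrichment in the undifferentiated and preleptotene tables and weak in those of type A1 and round spermatids. No Smc3 peak was listed in pachytene/diplotene. At the round spermatid peak of nt 3318 to 3580, however, the recovered pachytene/diplotene enrichment was 2.58 and 1.53, above the lowest mean that table lists.

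Among the kleisins, Rec8 (chr14:55618002-55625395), the meiotic kleisin whose cleavage releases homologues and later sisters, had 1 recurrent site near the 3′ end of its coding sequence, between nt 1448 and 1701. The site read 2.62 and 3.35 in undifferentiated spermatogonia, 1.36 and 1.62 in type A1, 2.61 and 2.72 in preleptotene, 2.63 and 2.38 in pachytene/diplotene, and 1.54 and 1.50 in round spermatids. It was stronger than 49.0%, 33.6%, 37.5%, 30.6% and 41.2% of the peaks of its table, below the middle at every stage. A further Rec8 peak at nt 125 to 300 was listed in preleptotene alone, with 2.05 and 2.24. The recovered undifferentiated values there were 1.32 and 0.71, and the difference did not pass the test (1.14 on the log2 scale, adjusted p = 0.115, limma).

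Rad21l (chr2:151644366-151670622), a kleisin of early meiotic prophase, had 1 coding peak in each of 2 stages. It read 3.61 and 3.07 in preleptotene (nt 1174 to 1359), and 1.66 and 1.44 in type A1 (nt 1125 to 1320). At the preleptotene peak the recovered values of undifferentiated spermatogonia, which list no Rad21l peak, were 2.59 and 2.42, above the lowest mean of 1.48 that their table lists. The preleptotene excess over undifferentiated spermatogonia was 0.84 after centring (adjusted p = 0.211, limma). At the type A1 peak the preleptotene values were 3.59 and 2.97, and the difference was 0.66 after centring (adjusted p = 0.13). The lists thus held Rad21l in type A1 and preleptotene alone. The enrichments did not separate preleptotene from either spermatogonial stage beyond the test's threshold.

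Rad21 (chr15:51962604-51993538), the mitotic kleisin, had a coding site near nt 1760 to 2055 in all 5 stages. It read 5.40 and 5.41 in undifferentiated spermatogonia, 1.67 and 2.15 in type A1, 5.03 and 4.22 in preleptotene, 3.37 and 2.61 in pachytene/diplotene, and 2.80 and 2.36 in round spermatids. Relative to its table it outranked 96.4%, 59.1%, 92.2%, 55.2% and 87.5% of the peaks. It was thus high in undifferentiated, preleptotene and round spermatid tables and near the middle in type A1 and pachytene/diplotene. A 3′ UTR peak near nt 2793 to 2958 was listed in the first 3 stages, at 3.04 and 4.37 in undifferentiated spermatogonia, 1.78 and 1.73 in type A1, and 3.87 and 3.45 in preleptotene.

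Of the STAG subunits, Stag3 (chr5:138272514-138312397), the meiotic one, had 6, 4, 5, 5 and 3 peaks along the stages, and 3 of its 4 sites were listed in all 5. Its start codon peak, which begins at nt 62 to 95, read 3.21 and 4.02 in undifferentiated spermatogonia, 1.74 and 1.66 in type A1, 4.04 and 3.79 in preleptotene, 4.21 and 3.02 in pachytene/diplotene, and 1.91 and 1.73 in round spermatids. The other sites listed in all 5 stages lay at nt 951 to 1185 and at nt 3339 to 3889, near the 3′ end of the coding sequence. The strongest Stag3 peak stayed above the middle of its table in every stage, and outranked between 51.6% (type A1) and 82.2% (preleptotene) of the peaks.

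Stag1 (chr9:100597709-100958544), a somatic STAG, carried 9, 6, 9 and 7 peaks in the first 4 stages and none in round spermatids. Its 5′ UTR peak, which begins at nt 1, read 4.74 and 5.16 in undifferentiated spermatogonia, 4.56 and 4.42 in preleptotene, and 3.66 and 3.18 in pachytene/diplotene. It was not listed in type A1, where the recovered values at the undifferentiated peak were 2.60 and 2.85, as high as the strongest Stag1 peak listed there (2.65 and 2.61, nt 1766 to 1937). In round spermatids the recovered values at the pachytene/diplotene 5′ UTR peak were 1.59 and 0.91. Of the 7 pachytene/diplotene peaks of Stag1, 3 had a recovered round spermatid mean at or above the lowest one that table lists, 0.61.

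Nipbl (chr15:8289824-8465315), the loader, had the most peaks of the 10 genes at each stage, with 10, 7, 11, 13 and 11. Its strongest peak lay in the coding sequence from nt 2467 to 2476 in all 5 stages. It read 5.05 and 5.67 in undifferentiated spermatogonia, 3.02 and 2.77 in type A1, 5.23 and 5.50 in preleptotene, 6.48 and 5.59 in pachytene/diplotene, and 4.19 and 3.71 in round spermatids. It outranked 96.2%, 92.0%, 97.2%, 99.0% and 99.2% of the peaks of its table. A neighbouring coding site, at nt 2763 to 3081, was also listed in all 5 stages. Its highest peak read 5.33 and 5.27 in preleptotene, 5.99 and 5.58 in pachytene/diplotene, and 4.37 and 3.50 in round spermatids. The 5′ UTR peak of Nipbl, near nt 6 to 257, was listed in the first 4 stages and read 5.18 and 4.81 in undifferentiated spermatogonia, 1.78 and 2.23 in type A1, 6.00 and 4.65 in preleptotene, and 5.50 and 4.84 in pachytene/diplotene. In round spermatids the recovered values at that site were 1.56 and 3.12.

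Of the Pds5 regulators, Pds5a (chr5:65605719-65698236) was strongest near the 3′ end of its coding sequence, at nt 3930 to 4140, in every stage but preleptotene, where its start codon peak was slightly higher. The 3′ peak read 4.93 and 5.11 in undifferentiated spermatogonia, 3.38 and 2.95 in type A1, 4.55 and 4.45 in preleptotene, 4.51 and 3.77 in pachytene/diplotene, and 2.44 and 2.10 in round spermatids. Its start codon peak, near nt 85 to 277, read 4.05 and 4.76 in undifferentiated spermatogonia, 1.69 and 1.64 in type A1, 4.62 and 4.57 in preleptotene, and 3.89 and 3.03 in pachytene/diplotene. In type A1 the 3′ peak outranked 95.4% of peaks, whereas the start codon peak, at a mean of 1.66, lay below the median of that table (1.76).

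Pds5b (chr5:150673713-150810669) carried a dense cluster from nt 3602 into its 3′ UTR. The highest coding peak, which begins at nt 3815 to 3898, read 5.32 and 5.43 in undifferentiated spermatogonia, 3.59 and 3.47 in type A1, 5.38 and 5.86 in preleptotene, 5.17 and 3.95 in pachytene/diplotene, and 2.77 and 2.32 in round spermatids. The 3′ UTR peak, which begins at nt 4574 to 4576, read 4.51 and 6.13 in undifferentiated spermatogonia, 4.19 and 3.88 in type A1, 5.14 and 5.91 in preleptotene, 5.00 and 4.31 in pachytene/diplotene, and 1.85 and 2.24 in round spermatids. In type A1 it outranked 99.6% of peaks, the highest rank of any cohesin peak in that table. The 5′ peak of Pds5b, near nt 99 to 360, was weaker, at 3.08 and 3.51 in undifferentiated spermatogonia, 1.22 and 1.73 in type A1, 3.61 and 4.53 in preleptotene, 2.89 and 2.10 in pachytene/diplotene, and 1.51 and 0.99 in round spermatids.

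**Figure D2:**
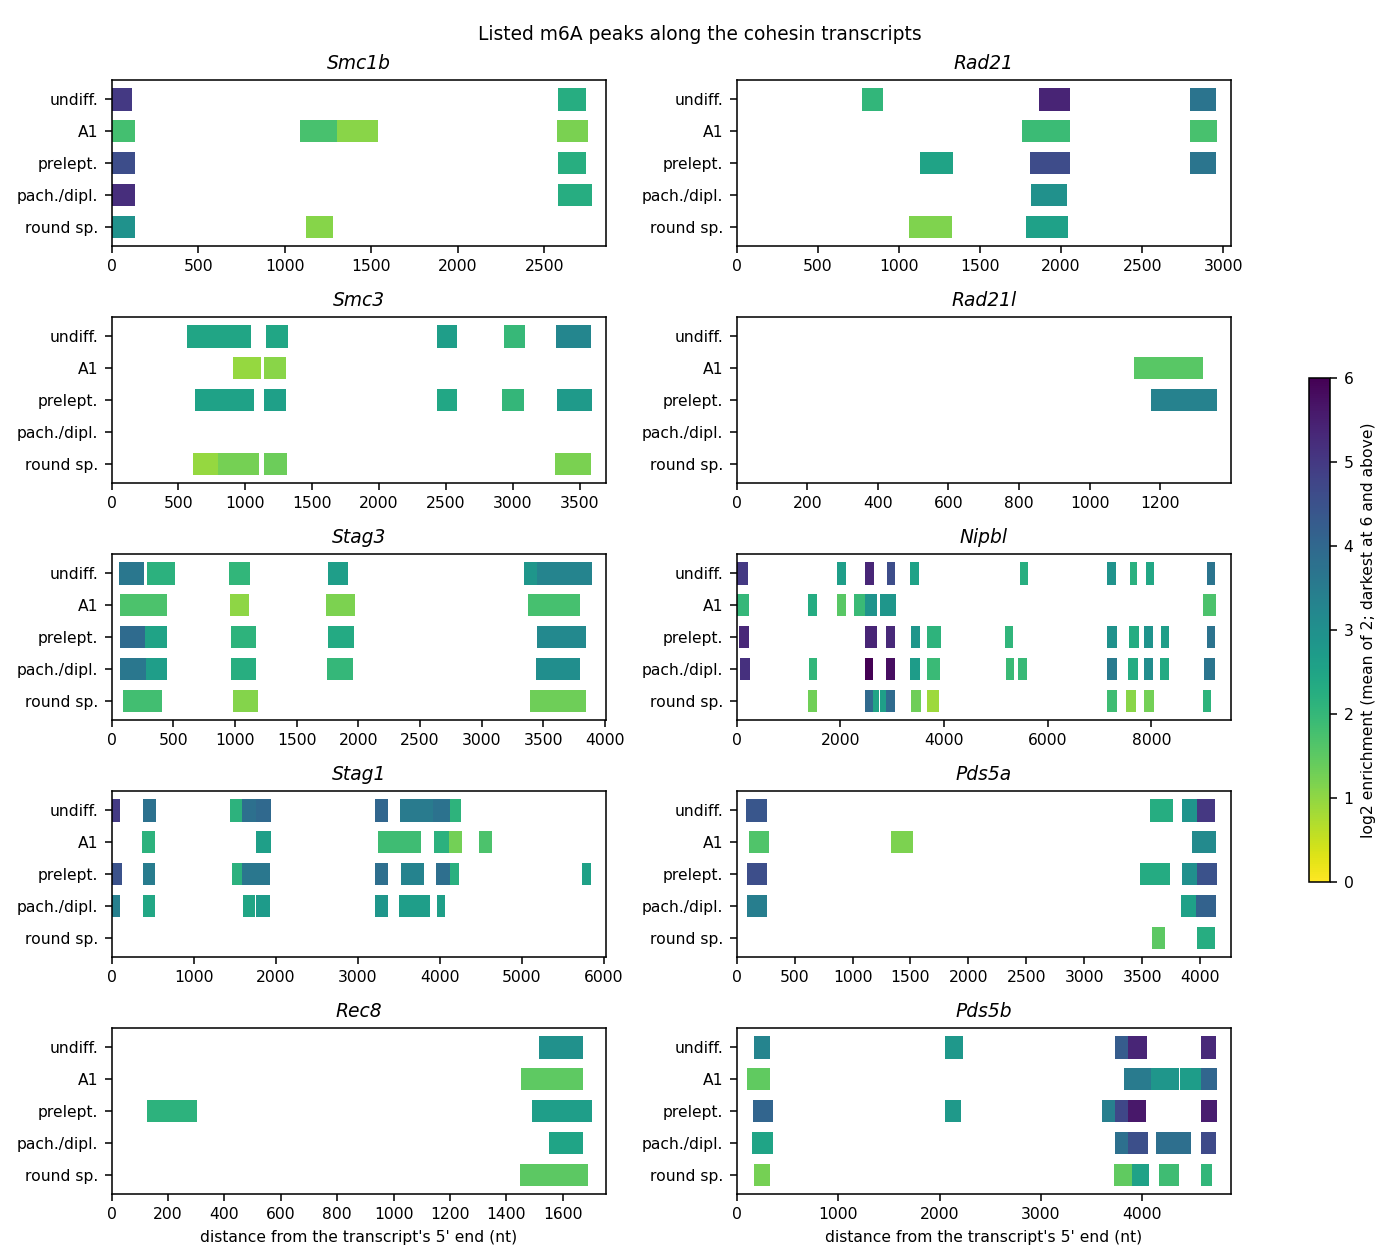
Listed peaks along the 10 cohesin transcripts, in nt from the 5′ end, with 1 row per stage and colour for the mean log2 enrichment of the 2 replicates. The 5′ peaks of Smc1b, Nipbl, Pds5a and Pds5b are paler in type A1 than in undifferentiated spermatogonia and preleptotene, as are the strongest coding peaks of Nipbl and Pds5b. Colours are not centred, and the median of all peaks is 1.76 in type A1, against 3.01 in undifferentiated spermatogonia and 2.92 in preleptotene. Nipbl has the most peaks at each stage.

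Differences between stages were tested peak by peak. Each table holds its own enrichments and ratios to 1 other stage, from which the enrichment of that stage at the same peak was recovered. Each column was centred on its median over the table, so a difference says how far a peak moved relative to the typical peak. Before centring, the median undifferentiated peak had 1.31 and 1.36 in type A1, against 2.80 and 3.27 in undifferentiated spermatogonia. The median type A1 peak had 2.79 and 2.83 in preleptotene, against 1.78 and 1.73 in type A1. The median pachytene/diplotene peak had 1.25 and 1.28 in round spermatids, against 3.13 and 2.64 in pachytene/diplotene. Values also spread less over peaks in the type A1 and round spermatid columns. At type A1 peaks the SD was 1.23 and 1.15 in preleptotene, against 0.68 and 0.66 in type A1. At round spermatid peaks it was 0.69 and 0.70 in round spermatids, against 1.28 and 1.25 in pachytene/diplotene. Only peaks listed for a table's own stage enter its comparison, whether or not the other stage lists them. A peak thus entered through its enrichment in that stage. The part of this selection, and of these shifts and spreads, in the calls below was not tested.

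Between type A1 and undifferentiated spermatogonia, the 5′ peaks of Smc1b, Nipbl and Pds5a fell, as did the strong coding peak of Rad21. At the 45 undifferentiated peaks, 6 were lower in type A1 (background 15.9% of 22843 peaks) and 2 higher (background 9.22%), neither share above its background. Without centring these counts were 43 lower and 0 higher, where 20638 of all 22843 peaks were lower and 9 higher. The median difference was 0.02 for the cohesin peaks and -0.10 for all peaks. The Smc1b 5′ peak had 1.89 and 1.78 in type A1, against 5.13 and 4.88 in undifferentiated spermatogonia, a difference of -1.49 (SE 0.30, adjusted p = 0.0106, limma). The Rad21 peak at nt 1866 to 2054 had 1.84 and 2.31 in type A1, against 5.40 and 5.41 in undifferentiated spermatogonia (-1.64, SE 0.29, adjusted p = 0.00624). At both peaks the replicates of the stages do not overlap, and these calls held in every alternative run on them.

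The remaining calls of this comparison were less stable. The Nipbl 5′ UTR peak had 1.80 and 2.27 in type A1, against 5.18 and 4.81 in undifferentiated spermatogonia (-1.27, adjusted p = 0.026, limma, then 0.0597 after quantile normalization and 0.161 without type A1 replicate 1). The Pds5a start codon peak had 1.77 and 1.75 in type A1, against 4.05 and 4.76 in undifferentiated spermatogonia (-0.96, adjusted p = 0.0272, limma, then 0.178 and 0.167 without type A1 replicate 1 and replicate 2). Lower too were Smc3 at nt 3324 to 3586 (-1.01) and Nipbl at nt 7897 to 8057 (-1.04), the latter with recovered type A1 values of -0.27 and -0.36. Type A1 listed neither peak, so both entered the comparison through the undifferentiated list alone. The peaks called higher were Pds5a at nt 3571 to 3765 and Stag3 at nt 288 to 514. Without centring both turned round, to -0.53 for Pds5a, which was then not called (adjusted p = 0.157, limma), and to -0.91 for Stag3, which was called lower (adjusted p = 0.0266). Leaving out either type A1 replicate gave fewer cohesin calls in both directions, and fewer over all peaks too. Leaving out either undifferentiated replicate gave more cohesin peaks called higher, and as many or more called lower. Over all peaks it gave more calls in both directions.

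Between preleptotene and type A1, the 5′ peaks of Smc1b, Nipbl, Pds5a and Pds5b and the strong coding peak of Rad21 rose. At the 35 type A1 peaks, 7 were higher in preleptotene (background 13.6% of 16309 peaks) and 3 lower (background 14.4%). The median difference was 0.44 for the cohesin peaks and 0.01 for all peaks. Without centring the counts were 30 higher and 0 lower, where 10777 of all 16309 peaks were higher and 510 lower. The Smc1b 5′ peak had 4.86 and 4.31 in preleptotene, against 1.84 and 1.72 in type A1 (1.74, SE 0.28, adjusted p = 0.00488, limma). The Nipbl 5′ UTR peak had 6.12 and 4.85 in preleptotene, against 1.78 and 2.23 in type A1 (2.42, SE 0.43, adjusted p = 0.00641). The Pds5a start codon peak had 4.36 and 4.34 in preleptotene, against 1.69 and 1.64 in type A1 (1.63, SE 0.24, adjusted p = 0.00362). These 3 calls held in every alternative run on them. The setting with a minimum mean of 2 left out the Smc1b and Pds5a peaks, which were weaker than that in type A1. This comparison shares the type A1 libraries with the one before.

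The Pds5b start codon peak was also higher, with 3.75 and 4.60 in preleptotene, against 1.22 and 1.73 in type A1 (1.64, SE 0.34, adjusted p = 0.0119). The Rad21 peak at nt 1760 to 2055 had 4.83 and 3.96 in preleptotene, against 1.67 and 2.15 in type A1 (1.43, adjusted p = 0.0226). Without type A1 replicate 1, the adjusted p was 0.116 for Pds5b and 0.193 for Rad21. The coding peaks of Nipbl at nt 2467 to 2707 (1.36) and nt 2763 to 3081 (0.82) were called higher, with an adjusted p (limma) of 0.132 and 0.658 after quantile normalization. Lower in preleptotene were Nipbl at nt 1384 to 1543 (-1.60), Smc1b at nt 1090 to 1302 (-1.09) and Pds5a at nt 1328 to 1521 (-1.04). None of these 3 coding peaks was listed in preleptotene. Without centring the differences were -0.53, -0.03 and 0.03, and none was called, so the Pds5a direction flips. Leaving out either type A1 replicate gave fewer cohesin calls in both directions, and leaving out either preleptotene replicate gave more. The calls over all peaks moved the same way in each of these runs.

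The calls were also counted by place on the transcript, a division chosen after they were seen. Of the 5 undifferentiated cohesin peaks labelled 5′ UTR or start codon, 3 were lower in type A1, against 29.6% of all 3754 such peaks. Of the 5 type A1 cohesin peaks with these labels, 4 were higher in preleptotene, against 29.9% of all 2352. In the coding sequence, 3 of 34 cohesin peaks were lower in type A1 (15.7% of all) and 2 were higher (6.72% of all). Of 23 such type A1 peaks, 3 were higher in preleptotene (14.0% of all) and 3 lower (9.97% of all). In number, the coding calls were thus more than the 5′ calls. At the stop codon and in the 3′ UTR, none of 6 and none of 7 cohesin peaks was called in either direction. There 18.9% of all peaks were higher in type A1 and 23.2% lower in preleptotene. The whole tables also had a larger share of these calls at 5′ peaks than in the coding sequence, and whether the cohesin peaks exceed that share was not tested.

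No cohesin peak passed the test between preleptotene spermatocytes and undifferentiated spermatogonia. Of 48 preleptotene peaks, 0 were called in either direction (limma, adjusted over 18706 peaks), where 5.36% of all peaks were higher and 2.45% lower. At an unadjusted p under 0.05 there were 4, and with the replicate number as a block 2 were called higher. The largest differences were 1.14 at the 5′ peak of Rec8, 1.04 at nt 3675 to 3945 of Nipbl (adjusted p = 0.11), 0.90 at the 5′ peak of Pds5b (adjusted p = 0.179) and 0.84 at Rad21l. The Smc1b 5′ peak had 4.88 and 4.32 in preleptotene, against 5.02 and 4.74 in undifferentiated spermatogonia (-0.28, SE 0.38). The median difference was 0.07 for cohesin peaks and 0.01 for all peaks. Without undifferentiated replicate 1, 1 peak was called higher.

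Between round spermatids and pachytene/diplotene spermatocytes 3 peaks of Pds5b and the 5′ peak of Smc1b were called lower, each call being lost under at least 1 alternative. Rad21, Smc3 and Pds5a peaks were higher only relative to the median peak, with the direction flipping without centring. At the 30 round spermatid peaks, 6 were higher in round spermatids (background 16.1% of 10810 peaks) and 5 lower (background 10.9%). Of those called higher, the Smc3 and Pds5a peaks and Rad21 at nt 1063 to 1325 were not listed in pachytene/diplotene. Without centring the counts were 0 higher and 20 lower. Before centring, the median round spermatid peak had 1.71 and 1.62 in round spermatids, against 3.065 and 2.58 in pachytene/diplotene. At the 37 pachytene/diplotene peaks, 1 was higher (background 1.71% of 15514) and 1 lower (background 7.06%), and 0 and 34 without centring. There too the median of all peaks was lower in round spermatids before centring. Both tables rest on the same libraries and are not independent.

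The Pds5b 3′ UTR peak had 1.85 and 2.24 in round spermatids, against 5.12 and 4.46 in pachytene/diplotene, a difference of -1.57 (SE 0.27, adjusted p = 0.00372, limma) in the round spermatid table. In the pachytene/diplotene table the same site differed by -1.14 (adjusted p = 0.0439, limma, then 0.103 after quantile normalization). The coding peaks of Pds5b at nt 3720 to 3897 (-1.22) and nt 4162 to 4360 (-0.91) were called lower too. After quantile normalization the first kept its call and the other lost it (-0.68, adjusted p = 0.188, limma). The 5′ peak of Smc1b had 3.12 and 2.83 in round spermatids, against 5.70 and 4.72 in pachytene/diplotene (-1.06, adjusted p = 0.0225). After quantile normalization its difference was -0.40 (adjusted p = 0.384). The strongest Nipbl peak, at nt 2472 to 2632, had 4.19 and 3.71 in round spermatids, against 6.48 and 5.59 in pachytene/diplotene (-0.91, adjusted p = 0.0429). After quantile normalization that difference turned to 0.09, so no direction can be read from it. In the pachytene/diplotene table, with other peaks behind the centring, the same Smc1b and Nipbl peaks differed by -0.62 and -0.47 and were not called.

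The peaks called higher were nearly level on the deposited scale, on which the median peak was lower in round spermatids. The Rad21 coding site, at nt 1812 to 2038 of the pachytene/diplotene table, had 2.92 and 2.49 in round spermatids, against 3.37 and 2.61 in pachytene/diplotene. The difference was 1.33 after centring (SE 0.30, adjusted p = 0.0263) and -0.28 without it. The same site of the round spermatid table differed by 0.86 after centring and -0.31 without it, and Rad21 at nt 1063 to 1325 by 1.04 and -0.14. For Smc3 the centred differences were 0.94, 1.13 and 0.86 at nt 605 to 796, nt 797 to 1099 and nt 1137 to 1312, and -0.24, -0.04 and -0.31 without centring. Pds5a at nt 3581 to 3698 differed by 1.17 and -0.01. After quantile normalization the 3 Smc3 differences were -0.19, 0.52 and 0.45 (adjusted p = 0.688, 0.244 and 0.304, limma), and none was called. The Pds5a peak (0.75, adjusted p = 0.114) and the Rad21 peak at nt 1063 to 1325 (0.27, adjusted p = 0.608) also lost their calls. The Rad21 site kept its call in both tables, with 1.49 (adjusted p = 0.0236) in the pachytene/diplotene table and 1.10 (adjusted p = 0.0305) in the round spermatid table.

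The cohesin calls of both tables changed when a single library was left out, and all were lost without round spermatid replicate 1. Leaving out any other replicate of either stage also changed the number called. How the calls over all peaks changed in these runs is not given here. The changes are therefore not shown to be particular to cohesin peaks. The Pds5b 3′ UTR peak of the round spermatid table was the call least touched, lost only without round spermatid replicate 1 (-1.33, adjusted p = 0.0762).

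**Figure D3:**
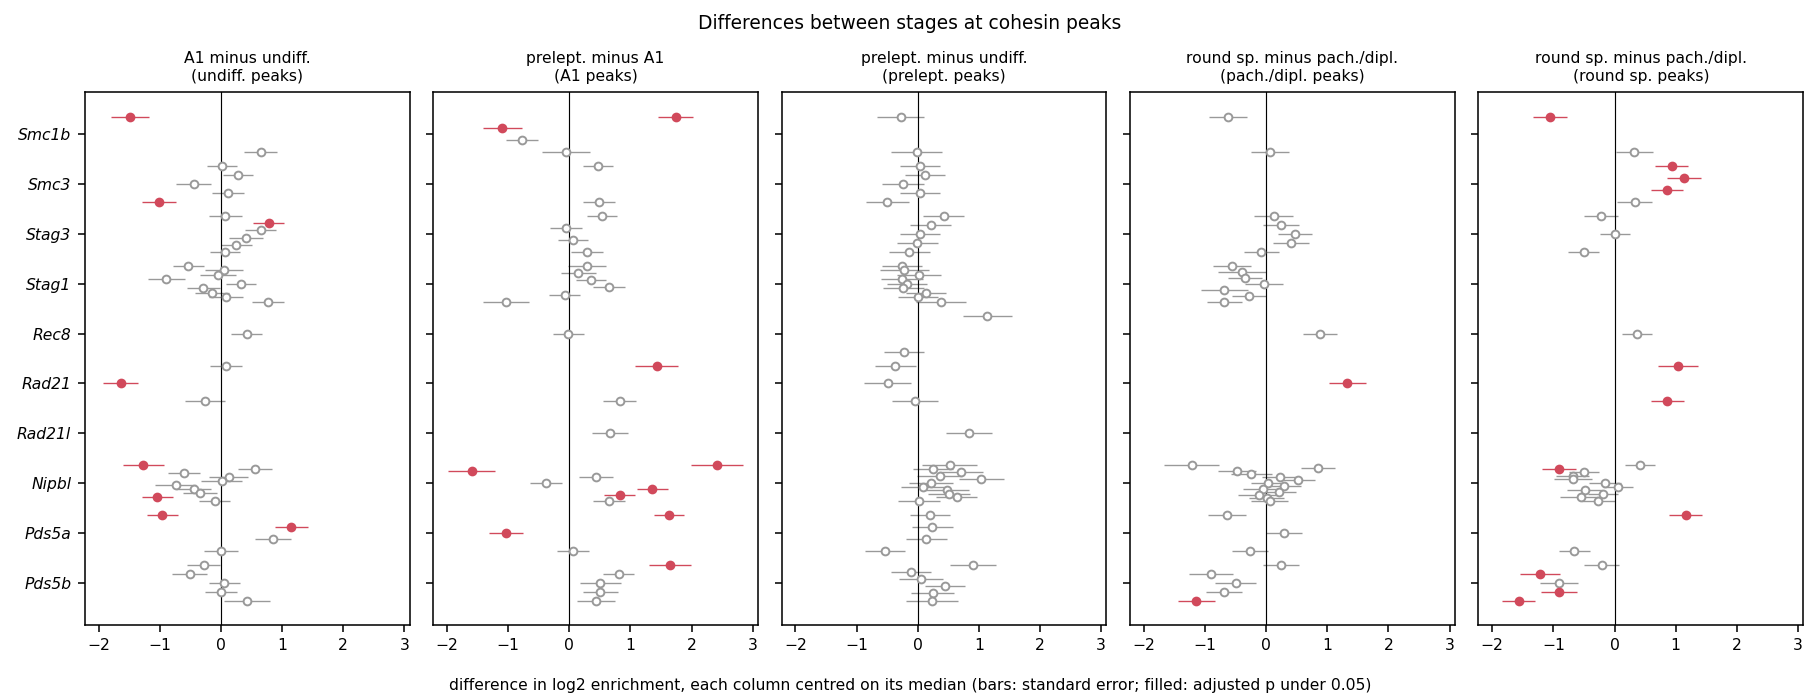
Differences in log2 enrichment between stages (x axis, later minus earlier, columns centred on their medians) at each cohesin peak (rows by gene, peaks from 5′ at the top of a row to 3′), with standard errors. Filled points passed an adjusted p of 0.05; the 5′ peaks of Smc1b and Nipbl are the topmost points of their rows, at -1.49 and -1.27 for type A1 minus undifferentiated and at 1.74 and 2.42 for preleptotene minus type A1.

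A peak missing from a list was often still enriched. Type A1 listed no peak at 14 of the 45 undifferentiated cohesin peaks, and its recovered mean was at or above its own lowest listed mean at 5 of them (47.5% over all such peaks). For preleptotene values at type A1 peaks this was 7 of 9 (70.8%), and for undifferentiated values at preleptotene peaks 5 of 7 (75.1%). For round spermatid values at pachytene/diplotene peaks it was 10 of 15 (64.6%), and for pachytene/diplotene values at round spermatid peaks 5 of 9 (51.6%). The highest such values were at Pds5b at nt 4085 to 4363, with 3.99 and 4.84 in preleptotene, and at Nipbl nt 2773 to 2882, with 4.94 and 4.07 in pachytene/diplotene, which lists the adjoining peak from nt 2883. A gene or site without a listed peak is therefore not shown to lack m6A, and transcript levels were not analysed here.

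A larger share of cohesin sites than of all sites was listed at every stage. Peaks that overlapped by at least 1 nt on a transcript were joined into 51 cohesin sites, of which 13 (25.5%) were listed in all 5 stages and 7 (13.7%) in 1 stage. Of all 31395 sites, 12.0% were listed in all 5 stages and 38.8% in 1 stage. Stag3, Nipbl and Pds5b had 3 sites each in all 5 stages, and Smc1b, Rec8, Rad21 and Pds5a 1 each. Of the 14 cohesin sites listed in exactly 4 stages, 8 lacked round spermatids, 4 type A1 and 2 pachytene/diplotene. Round spermatids, the shortest list, were also the stage most often missing over all sites, with 2168 sites, against 703 that lacked type A1.

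A larger share of cohesin peaks than of all peaks lay in coding sequence. In the 4 tables with start and stop codon labels, 112 of 147 cohesin peaks (76.2%) were labelled coding, against 58.4% of all peaks. Start codon labels held 8.16% of cohesin peaks and 11.0% of all, 5′ UTR labels 3.40% and 4.48%, and 3′ UTR labels 8.84% and 13.2%. The stop codon, the place where m6A is known to be dense in mammalian mRNA, held 3.40% of cohesin peaks and 11.1% of all. The 5 cohesin stop codon peaks were on Stag3 and Stag1 in undifferentiated spermatogonia, on Stag1 and Pds5b in type A1, and on Stag1 in pachytene/diplotene. Peaks of 1 transcript are not independent, and these shares carry no test.

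Of 32 other genes of cohesin, condensin, the Smc5/6 complex and loop boundaries, 31 were marked in at least 1 stage and 13 in all 5. The numbers marked were 28, 23, 27, 22 and 16 along the stages. Smc1a, the mitotic SMC1 subunit, and Stag2, a mitotic STAG subunit beside Stag1, both X-linked, were marked in each of the first 3 stages. Neither had a peak in pachytene/diplotene. Stag2 had 1 peak again in round spermatids, and Smc1a none. The loader partner Mau2, the release factor Wapl, the separase gene Espl1, the Rec8 protector Sgo2a, Cdca5, the condensin genes Smc4, Ncapg, Ncapg2 and Ncaph2, the Smc5/6 genes Smc5, Smc6 and Slf2, and Ctcf were marked in all 5 stages. Meikin, a kinetochore protein of the first meiotic division, was marked in pachytene/diplotene and round spermatids alone. Ctcfl, the germ cell paralogue of Ctcf, was marked in preleptotene alone, Hdac8 in undifferentiated spermatogonia alone, Nsmce3 in type A1 alone, and Sgo2b in no stage. The acetyltransferase genes Esco1 and Esco2, the securin gene Pttg1, the protector gene Sgo1, the condensin genes Smc2, Ncapd2, Ncapd3 and Ncaph, and Nsmce1, Nsmce2, Nsmce4a and Slf1 were marked in 2 to 4 stages.

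**Figure D4:**
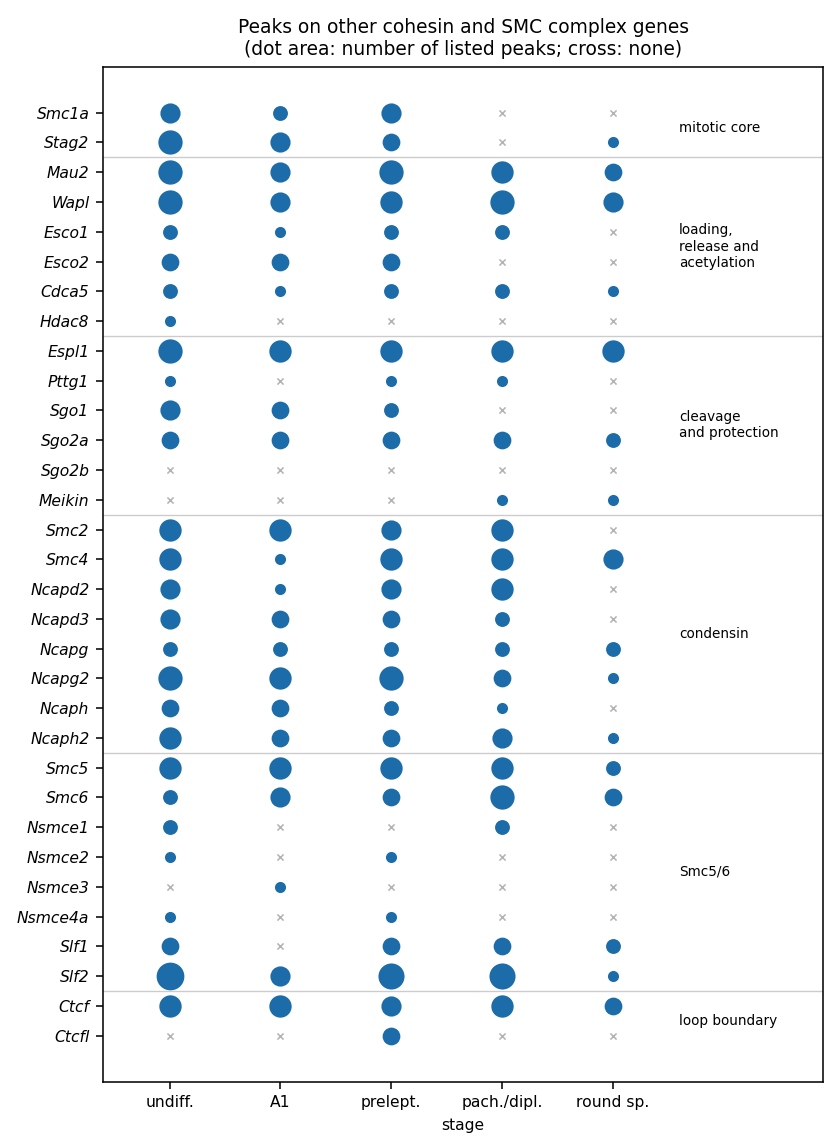
Listed peaks on 32 other genes of cohesin, condensin, the Smc5/6 complex and loop boundaries (rows, grouped by role) in the 5 stages (columns). The dot's area shows the number of peaks and a cross that none was listed; dots become fewer toward round spermatids, where 16 genes were marked, against 28 in undifferentiated spermatogonia.

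Of 105 undifferentiated peaks of these genes, 13 were lower and 8 higher in type A1, against 15.9% lower and 9.22% higher over all peaks. Of 72 type A1 peaks 13 were higher and 5 lower in preleptotene, against 13.6% higher and 14.4% lower over all peaks. Without centring these splits were 98 and 0, and 56 and 0, against 20638 and 9 of all 22843 peaks, and 10777 and 510 of all 16309. Smc4, a condensin arm, differed at its start codon peak by -3.12 for type A1 minus undifferentiated (adjusted p = 0.000833, limma) and by 3.34 for preleptotene minus type A1 (adjusted p = 0.00155). Smc5 differed at its start codon peak by -2.99 and 2.68, Ncapg by -1.84 and 1.68, and Wapl at its 5′ UTR peak by -1.99 and 1.58. After quantile normalization the Smc4 and Smc5 differences stayed past the threshold in both comparisons, and those of Ncapg did not in either (adjusted p = 0.0823 and 0.175, limma). The start codon peak of Ncaph2 was called higher in type A1 by 1.73, but by 0.04 without centring. Between preleptotene and undifferentiated spermatogonia, 1 of 92 peaks was called, higher on Ctcfl (1.45, adjusted p = 0.0396, limma, then 0.12 after quantile normalization), against 5.36% higher over all peaks. Of 80 pachytene/diplotene peaks 4 were lower and 0 higher in round spermatids, against 7.06% lower and 1.71% higher over all peaks. Of 36 round spermatid peaks 9 were lower and 2 higher, against 10.9% and 16.1% over all peaks. Without centring 78 and 31 were lower, and 0 and 1 higher, and the median of all peaks was then lower too. The start codon peak of Smc4 differed by -2.29 and -2.69 in the 2 tables. The largest difference of these genes was at Stag2 nt 423 to 586, higher in round spermatids by 3.36 (SE 0.25, adjusted p = 0.00031, limma). Without centring it was 2.19. Pachytene/diplotene listed no Stag2 peak, and undifferentiated spermatogonia no Ctcfl peak. The called Stag2 and Ctcfl peaks thus entered only through the stage where they were high, and the part of that selection in their calls was not tested.

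Genes whose strongest peak ran most like that of a cohesin gene over the 5 stages were looked up among the 2897 genes marked in all of them. Likeness was the Euclidean distance over 5 stages between their log2 enrichments, each taken relative to its table's median. The nearest gene was Sf3a1 for Smc1b (distance 0.37), Mtor for Stag3 (0.31), Thbs3 for Rec8 (0.24), Heatr1 for Rad21 (0.52) and Ralgps2 for Nipbl (0.58). For Pds5a it was 4932438A13Rik (0.19) and for Pds5b Ankib1 (0.58). The median distance to all these genes ran between 1.69 (Stag3) and 3.81 (Nipbl). These are descriptions with no test.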

How the data were processed

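m6A-seq was done on 5 stages, each with 2 IP and 2 input libraries. Per the submitters' processing notes, the aligner was TopHat2 2.0.14 and the build mm10. Which peak caller, threshold and scaling were used is not stated in those notes, the labels or the headers. The deposited workbook holds the mapped reads of each library and, per the file headers, 1 peak table per stage, in which every peak has for each replicate a log2 enrichment and a log2 ratio to a different stage. Peaks come as 1 list a stage, without read counts per peak.

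No header names the stage that a ratio refers to, so it was inferred. Enrichment minus ratio correlated at r of 0.942 to 0.971 across overlapping peaks with 1 stage, against 0.392 to 0.703 with the others, and the deposited label of common peaks matched overlap with that stage for 100% of peaks. Enrichment minus ratio was used as that stage's value. Differences are later minus earlier stage. Peaks with a value of exactly 0 (43 to 188 per table) were left out, columns were centred on their medians, and limma 3.58.1 in R 4.3.3 (lmFit, eBayes, 2 against 2, two-sided, Benjamini-Hochberg over the whole table, threshold 0.05) was run on every table. The script was tested on simulated data. Alternatives were no centring, quantile normalization, peaks with a 0 kept, a trended robust prior, peaks with a mean of at least 2 only, a replicate block, and each replicate left out. Genes were matched by Entrez gene (83876 peaks), accession (821) or symbol (81) to a RefSeq table of GRCm38.p6. The rule for named genes was all 10 members at every stage, their strongest and called peaks, fixed lists of 32 other genes, and the gene most like each member marked in all 5 stages. The members and lists were chosen with earlier results of these data known. Sequences of the peaks are not reported here.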

Additional observations from a re-analysis of the deposited data

How the results depend on the processing

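Of the 31 cohesin peaks called, 5 kept their call and direction under every alternative run on them: Smc1b at nt 1 to 119 and Rad21 at nt 1866 to 2054 for type A1 minus undifferentiated spermatogonia, and Smc1b at nt 1 to 133, Nipbl at nt 6 to 230 and Pds5a at nt 103 to 277 for preleptotene minus type A1. Over the alternatives run on called peaks, 224 results kept call and direction, 79 lost the call and 12 turned round. Without centring, cohesin peaks higher and lower numbered 0 and 43 (type A1 minus undifferentiated), 30 and 0 (preleptotene minus type A1), 0 and 34 (round spermatids minus pachytene/diplotene, pachytene/diplotene table) and 0 and 20 (round spermatid table). Over all peaks, 9 and 20638 of 22843 were higher and lower in the first of these, and 10777 and 510 of 16309 in the second. For round spermatids minus pachytene/diplotene, the median of all peaks was also lower in round spermatids before centring, in both tables. Turned round without centring were Pds5a at nt 3571 to 3765 (-0.53) and Stag3 at nt 288 to 514 (-0.91) of the first comparison and Pds5a at nt 1328 to 1521 (0.025) of the second. In round spermatids minus pachytene/diplotene these were Rad21 at nt 1812 to 2038 (-0.28), nt 1063 to 1325 (-0.14) and nt 1783 to 2045 (-0.31), Pds5a at nt 3581 to 3698 (-0.0103), and Smc3 at nt 605 to 796 (-0.24), nt 797 to 1099 (-0.0411) and nt 1137 to 1312 (-0.31). After quantile normalization Smc3 at nt 605 to 796 (-0.19) and Nipbl at nt 2472 to 2632 (0.0877) turned round. That setting called 4 higher for type A1 minus undifferentiated, 1 lower for preleptotene minus type A1, 0 lower in the pachytene/diplotene table, and 1 higher and 3 lower in the round spermatid table. With peaks of a mean of at least 2 alone, fewer peaks were tested, and 2 were called higher and 1 lower for preleptotene minus type A1 and 1 and 1 in the round spermatid table. A trended robust prior called 0 lower in the pachytene/diplotene table. Of the called cohesin peaks still tested with that minimum of 2, 15 kept their call and 3 lost it. Except for the centring, whose construction shows it, the cause was not tested.

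Leaving out 1 replicate at a time, which leaves 2 against 1 with the lone sample assumed to vary like the others, gave 0 to 7 higher and 2 to 7 lower for type A1 minus undifferentiated and 3 to 15 higher and 0 to 6 lower for preleptotene minus type A1. It gave 0 to 1 higher and 0 to 0 lower for preleptotene minus undifferentiated, 0 to 1 higher and 0 to 2 lower in the pachytene/diplotene table, and 0 to 5 each in the round spermatid table. For the first 2 comparisons the calls over all peaks also fell without a type A1 replicate and rose without one of the other stage. For the other comparisons the calls over all peaks in these runs are not given here. Replicates share only a number. Their deviations correlated between stages at -0.13, -0.14, 0.12, 0.06 and 0.02 in the 5 tables, and samples were not treated as paired. With a replicate block 1 peak was higher for type A1 minus undifferentiated and 2 for preleptotene minus undifferentiated. With crossed numbers, a setting chosen after seeing the data, 4 peaks were higher for type A1 minus undifferentiated and 5 lower for preleptotene minus type A1. Taking the mean over all peaks of a gene instead of its strongest moved 36 of 45 values by more than the spread between replicates, as that summary must where a gene has weaker peaks. The genes marked per stage stayed within 1.5 times under the alternatives run on them, as did the 13 sites in all 5 stages, also without the type A1 table (17 of 48, added after seeing the data).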
